A study of Mus musculus with 16 samples.

Results

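The 9 genes described here are regulators of skeletal muscle formation, *Pax3*, *Pax7*, *Myf5*, *Myod1*, *Myog*, *Myf6*, *Mef2c*, *Eya1* and *Tbx1*, measured in embryonic molar germs of the mouse. They were chosen by name, through the gene symbol that the platform annotation gives each probe set (the group of probes that reads a gene). All 9 had 1 probe set of their own, and all 9 were above a log2 signal of 5 in every sample, among 17215 genes tested in all. The study asked how loss of the kinase RSK2 alters gene expression in tooth germs. RNA was taken from mandibular molar germs at embryonic day 14.5 of *Rsk2-/Y* males, in which excision of an exon inactivates the gene, and of wild-type (WT) littermate males, all on C57Bl6. There were 8 *Rsk2-/Y* pools and 8 WT pools, each of 4 germs, and each pool was read on 1 Affymetrix array. The sample names fall into the series AZN and ABH, each with 4 pools of each genotype, and neither the labels nor the methods explain these series.

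Head muscles form from mesoderm that lies close to the developing mandible. TBX1 and the EYA1 cofactor act early in this mesoderm, and PAX3 and PAX7 mark muscle progenitors in the trunk and, for PAX7, in muscle stem cells generally. MYF5 and MYOD1 are bHLH factors that commit a cell to the muscle lineage, MYOG starts its differentiation, and MYF6 acts late. These factors bind the E-box with E proteins as partners, and MEF2C, a MADS-box factor, works with them on genes of the contractile apparatus. Several of the genes also have other sites of expression. *Pax3* is known from neural crest and its glial derivatives, *Mef2c* from endothelium and neural crest mesenchyme, *Eya1* from mesenchyme and placodes, and *Tbx1* from dental epithelium. Skeletal muscle is no part of a tooth germ.

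*Myog* and *Myf5* stand for the late and the early end of this order, and their promoters are shown for the motifs that the members themselves bind. RefSeq promoters of GRCm38.p6 were matched for 5 of the 9 members, and each window covers the 250 bases before the annotated start. Capitals mark the E-box, CANNTG on both strands, and the MEF2 site with any base at its last position.
Myog, chr1:134289754-134290003, plus strand: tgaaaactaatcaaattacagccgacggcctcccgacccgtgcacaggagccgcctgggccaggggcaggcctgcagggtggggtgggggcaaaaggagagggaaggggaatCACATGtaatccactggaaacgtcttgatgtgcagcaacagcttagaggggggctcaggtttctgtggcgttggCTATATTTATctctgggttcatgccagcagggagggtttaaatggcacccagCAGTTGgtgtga
Myf5, chr10:107486135-107486384, minus strand: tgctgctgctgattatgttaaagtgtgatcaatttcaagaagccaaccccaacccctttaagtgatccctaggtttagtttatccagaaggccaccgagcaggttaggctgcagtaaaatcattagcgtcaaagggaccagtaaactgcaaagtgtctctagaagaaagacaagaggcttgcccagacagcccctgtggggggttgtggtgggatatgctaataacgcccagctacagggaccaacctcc
The *Myog* window held 2 E-boxes, 138 to 133 and 12 to 7 bases before the start, and 1 MEF2 site between them, 64 to 55 bases before it, and no marked motif overlapped another. The *Myf5* window held neither motif. Of 32851 promoters of the same length, 66.2% held an E-box, 31.8% held 2 or more, and 7.03% held the MEF2 site in this form. With the last base of the MEF2 site restricted, it was in 2.92% of promoters and not in the *Myog* window. These matches describe letters in a window and not sites in use.

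Markers of the labelled tissue were present in every pool. The mean over 12 genes of dental mesenchyme was 9.93 to 10.58 in *Rsk2-/Y* pools and 10.12 to 10.49 in WT pools, and that over 16 genes of dental epithelium was 9.65 to 10.15 in *Rsk2-/Y* pools and 9.84 to 10.44 in WT pools. Sarcomere genes were also present, with a mean over 25 genes of 7.23 to 9.34 in *Rsk2-/Y* pools and 7.24 to 8.51 in WT pools. Only listed genes with a tested probe set entered these means, 12 of 14 for dental mesenchyme and 16 of 17 for dental epithelium. All 25 of the sarcomere list entered. Testing required a signal above 5 in at least 1 pool, so the means leave out any listed gene below it throughout. *Rps6ka3*, which encodes RSK2, read 9.74 to 10.40 in *Rsk2-/Y* pools and 9.61 to 10.22 in WT pools, and since its probes are spread over the gene this hardly checks the labels. The pool AZN_MolairesMutant3 stood apart. It was the highest of 16 pools for 6 of the 9 members and the lowest for *Tbx1*, and it had the highest sarcomere mean, 9.34. The next highest sarcomere mean, 9.08, was that of ABH_14A, also an *Rsk2-/Y* pool. Genotype differences and sarcomere slopes that move with these pools are given with and without them.

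**Figure D1:**
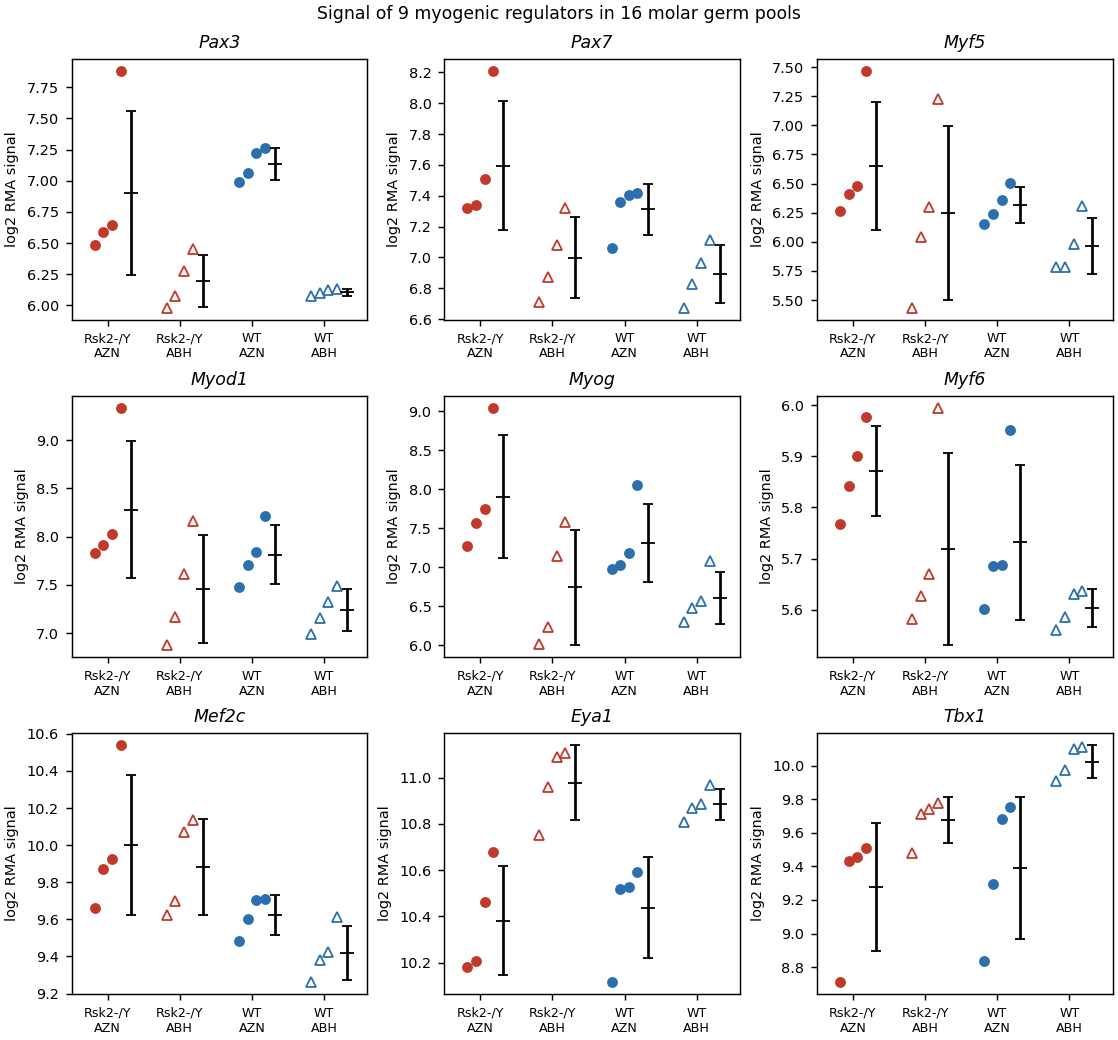
Log2 signal (y axis) of each of the 9 genes in every pool, with the pools grouped by genotype and series along the x axis. Circles are AZN pools, triangles are ABH pools, red is *Rsk2-/Y* and blue is WT, and the bars are the mean and SD of 4 pools. The single high *Rsk2-/Y* AZN circle in the panels of *Pax3*, *Pax7*, *Myf5*, *Myod1*, *Myog* and *Mef2c* is AZN_MolairesMutant3.

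No member passed the genotype test, which asked whether the muscle regulators differ between *Rsk2-/Y* and WT germs. The call required an adjusted p under 0.1 and a fold change above 1.2 in limma, and 0 of 9 members and 0% of the 18834 probe sets met it. At an unadjusted p under 0.05 there was 1 member, *Mef2c*, and 762 probe sets (4.05%). The log2 differences, *Rsk2-/Y* minus WT, were above 0 for 7 of 9 members with a median of 0.19, beside a median of -0.01 over all probe sets. The 9 directions are not independent of each other, since several members varied together from pool to pool.

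*Mef2c* had the lowest p of the members in this comparison, at rank 37 of 18834 probe sets. In *Rsk2-/Y* germs it read 9.92, 9.66, 10.54 and 9.87 in the AZN pools and 10.13, 9.70, 9.63 and 10.07 in the ABH pools. In WT germs it read 9.71, 9.48, 9.71 and 9.60 in the AZN pools and 9.38, 9.61, 9.26 and 9.42 in the ABH pools. All 8 *Rsk2-/Y* pools were above the WT mean and 5 of them were above the highest WT pool, so the genotypes overlapped. The means were 9.94 ± 0.31 in *Rsk2-/Y* and 9.52 ± 0.16 in WT (SD, n = 8 each), a log2 difference of 0.42 (standard error 0.11, adjusted p = 0.770, limma). An exact permutation test of this gene alone, two-sided, gave p = 0.00264 over 12870 arrangements and p = 0.00204 over the 4900 that keep the series. These p-values stand for 1 of 9 genes read, and *Mef2c* was singled out for its value. The difference was 0.37 within AZN and 0.46 within ABH, and it was 0.29 without AZN_MolairesMutant3 and ABH_14A. It was 0.25 with the sarcomere mean as a covariate and 0.21 with the dental epithelium mean, and neither fit called it.

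The bHLH factors read higher on average in *Rsk2-/Y* pools, with 6 of 8 pools above the WT mean for each. The size of these differences moved with single pools. *Myog*, the differentiation factor, read 7.27, 7.75, 9.04 and 7.57 in *Rsk2-/Y* AZN pools and 7.58, 6.23, 6.02 and 7.14 in *Rsk2-/Y* ABH pools. It read 7.18, 7.03, 8.05 and 6.98 in WT AZN pools and 6.56, 6.30, 6.47 and 7.08 in WT ABH pools. The *Rsk2-/Y* pools hold both the highest and the 2 lowest values, so the genotypes overlapped throughout. The log2 difference was 0.37 (standard error 0.34). Without AZN_MolairesMutant3 alone it was 0.12, and without ABH_14A as well it was 0.04. The other differences behaved likewise. *Myod1* was at 0.34, *Myf5* at 0.31 and *Pax7* at 0.19 over all pools, and at 0.05, 0.01 and 0.04 without both pools. Without the *Rsk2-/Y* pool ABH_16A alone, the differences were larger, at 0.55 for *Myog*, 0.48 for *Myod1*, 0.46 for *Myf5* and 0.28 for *Pax7*. None of these passed.

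*Pax3*, a progenitor factor, did not follow them. It read 6.59, 6.49, 7.88 and 6.64 in *Rsk2-/Y* AZN pools and 7.06, 7.26, 6.99 and 7.22 in WT AZN pools. Within AZN, 3 of the 4 *Rsk2-/Y* pools were thus below every WT pool and AZN_MolairesMutant3 was above every one. In the ABH series it read 6.07, 6.28, 6.45 and 5.98 in *Rsk2-/Y* pools and 6.13, 6.12, 6.07 and 6.10 in WT pools, and the WT pools lay inside the *Rsk2-/Y* range. Its genotype difference was -0.07 over all pools, -0.23 within AZN and 0.09 within ABH. It was -0.26 without AZN_MolairesMutant3 and -0.22 without ABH_14A as well, and it did not pass in any of these fits.

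*Tbx1*, a T-box factor of pharyngeal mesoderm and of dental epithelium, had the lowest genotype difference of the members at -0.23 (standard error 0.18), and did not pass. It was -0.12 without AZN_MolairesMutant3 and -0.14 without ABH_14A as well, and with the series and the dental epithelium mean as covariates it was 0.11. In the ABH series *Tbx1* read 9.71, 9.48, 9.78 and 9.74 in *Rsk2-/Y* pools and 9.91, 9.97, 10.10 and 10.11 in WT pools. The difference there was -0.35 and did not pass (adjusted p = 0.170, limma, 4 pools each). In the AZN series the gene read 9.51, 9.46, 8.71 and 9.44 in *Rsk2-/Y* pools and 9.75, 9.29, 8.83 and 9.68 in WT pools. *Eya1*, a phosphatase and transcriptional cofactor, was at 0.02, and *Myf6*, read near the lower end of the scale at 5.56 to 5.99, was at 0.13.

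Other lists of the pathway gave 0 calls for genotype as well. Targets of the myogenic regulators had 15 of 18 genes above 0 with a median difference of 0.28, which was 12 of 18 and 0.04 without AZN_MolairesMutant3 and ABH_14A. Among them *Klhl41*, which encodes a sarcomere-associated kelch protein, was at 0.64 and *Myl4*, an embryonic myosin light chain, at 0.58. E proteins and MEF2 partners had a median of 0.04, with *Smyd1*, a muscle methyltransferase, at 0.53 and *Vgll2*, a cofactor of TEAD factors, at 0.32. Inhibitors of bHLH factors had a median of 0.01, with *Mstn*, the secreted inhibitor of muscle growth, at 0.46 and *Hes1* at -0.13. Upstream and head muscle regulators had a median of 0.03, with *Meox2* at 0.26 and *Eya4* at 0.20. The median over all genes was -0.02.

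Cell type markers also differed on average between the genotypes, and none of them passed. Of the sarcomere list, 25 of 25 genes were above 0 (median 0.53), of the osteoblast list 7 of 7 (median 0.27), and of the dental epithelium list 0 of 16 (median -0.24). Without AZN_MolairesMutant3 and ABH_14A, the sarcomere list had 24 of 25 genes above 0 (median 0.24), with a mean of 7.95 in *Rsk2-/Y* pools and 7.72 in WT pools, the osteoblast list 6 of 7 (median 0.23) and the dental epithelium list 1 of 16 (median -0.21). With the sarcomere mean of each pool as a covariate beside the series, the genotype differences were -0.20 for *Myog*, -0.11 for *Myf5*, -0.09 for *Myod1* and -0.02 for *Pax7*, and none passed. In pooled tissue, fewer cells of a type and less RNA per cell cannot be told apart. The part of the cell types in the genotype differences was not tested beyond these fits.

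**Figure D2:**
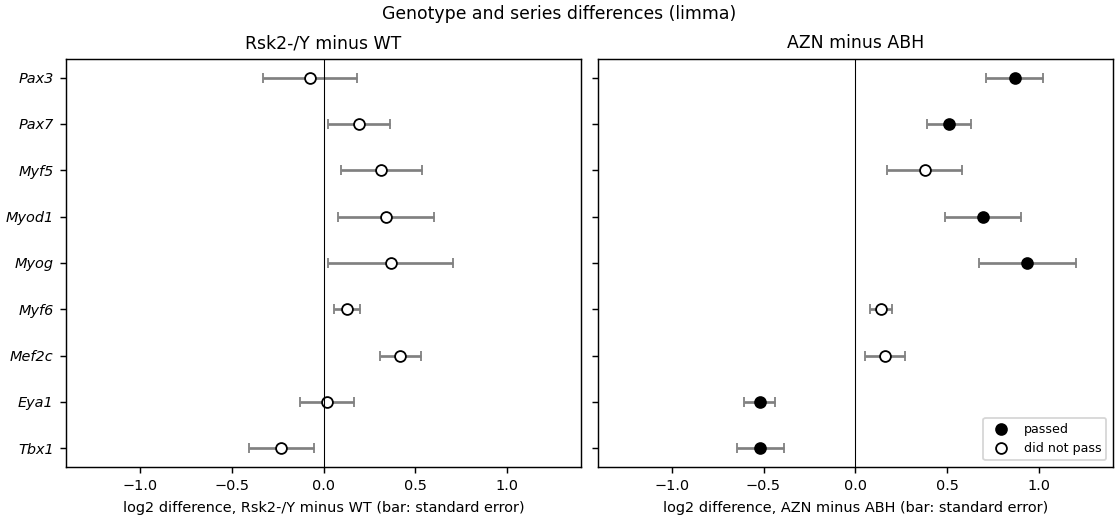
Log2 difference of each of the 9 genes between genotypes (left panel, *Rsk2-/Y* minus WT) and between series (right panel, AZN minus ABH), with the standard error from limma over 16 pools. Filled points passed the test, which is 0 members for genotype and 6 for series.

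The series differed far more than the genotypes did. In AZN pools relative to ABH pools, *Pax3*, *Pax7*, *Myod1* and *Myog* were higher and *Eya1* and *Tbx1* were lower at the same thresholds, with genotype in the fit. These are 4 of 9 members higher beside 5.95% of all probe sets, and 2 of 9 lower beside 10.6%. *Myf5*, *Myf6* and *Mef2c* were not called.

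*Myog* had the highest difference, 0.94 (standard error 0.26, adjusted p = 0.0103, limma), with means of 7.61 ± 0.69 in AZN and 6.67 ± 0.54 in ABH pools (SD, n = 8 each). *Pax3* was at 0.87 (standard error 0.15, adjusted p = 3.48e-04, limma), with means of 7.02 ± 0.46 in AZN and 6.15 ± 0.15 in ABH pools. It was the member whose AZN pools, from 6.49 to 7.88, were all above the ABH pools, from 5.98 to 6.45, and 3.54% of probe sets were separated that way. *Myod1* followed at 0.70 and *Pax7* at 0.51. *Myf5* was at 0.38 with an adjusted p of 0.157 in limma, and its ABH pools spanned 5.43 to 7.23. Without ABH_14A alone it was at 0.53 and was called (adjusted p = 0.0214, limma).

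*Eya1* was at -0.52 (standard error 0.08, adjusted p = 1.39e-04, limma). It read 10.12 to 10.68 in AZN pools and 10.75 to 11.11 in ABH pools, so that all AZN pools were below all ABH pools, as for 5.42% of probe sets. *Tbx1* was at -0.52 as well (adjusted p = 0.00479, limma), and its AZN pools, from 8.71 to 9.75, overlapped the ABH pools, from 9.48 to 10.11. *Mef2c* was at 0.16. *Myf6* was at 0.14 with an adjusted p of 0.0812 in limma, and its fold change of 1.10 did not reach the minimum.

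Within the genotypes the series differences ran the same way for every member. *Pax3* was at 0.71 in *Rsk2-/Y* pools alone and 1.03 in WT pools alone, and *Myog* was at 1.17 and 0.70 in the same order. In *Rsk2-/Y* pools alone *Myod1* (adjusted p = 0.126, limma) and *Tbx1* (adjusted p = 0.115) did not pass. With the sarcomere mean as a further covariate, the difference was 0.82 for *Pax3*, 0.41 for *Myog*, 0.30 for *Pax7* and 0.29 for *Myod1*, all still called, while *Myf5* was at -0.02.

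Among the other genes of the pathway, 9 of 18 targets were higher in AZN pools and 0 lower, led by *Klhl41* at 1.11, *Casq2*, a calcium-binding protein of the sarcoplasmic reticulum, at 0.81 and *Chrna1*, a subunit of the muscle acetylcholine receptor, at 0.75. The upstream regulators split, with 2 of 13 higher and 2 lower, among them *Isl1* at 0.32, *Six4* at -0.39 and *Six2* at -0.29. Of the E proteins and MEF2 partners, *Vgll2* was higher by 0.54 and *Mef2a* was at -0.28. Of 10 inhibitors, 1 was called, *Twist1*, at 0.39. Over all probe sets, 5.95% were called higher and 10.6% lower.

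Markers of several cell types moved with the series. Sarcomere genes were called higher in AZN for 7 of 25, osteoblast genes for 3 of 7, erythroid genes for 3 of 4, and genes of Schwann cells and neural crest glia for 3 of 6, with 1 lower. The mean of this last list was 7.93 to 8.41 in AZN pools and 7.65 to 8.12 in ABH pools. Dental epithelium genes were lower for 5 of 16 and higher for 1. Dental mesenchyme genes were lower for 4 of 12 and higher for 1, which is *Twist1*, the gene also listed among the inhibitors. Endothelium genes were higher for 2 of 12 and lower for 2. These counts stand beside 5.95% of all probe sets called higher and 10.6% called lower. The part of these cell types in the members' series differences was not tested beyond the fit with the sarcomere mean, and a batch and a stage behind the series cannot be told apart.

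No dependence of the genotype difference on the series was detected. In the interaction test, 0 of 9 members and 0% of 18834 probe sets were called (limma, adjusted p under 0.1), and at an unadjusted p under 0.05 there were 0 members and 1189 probe sets (6.31%). The interaction was -0.32 for *Pax3* (standard error 0.31) and -0.09 for *Mef2c* (standard error 0.22). Without AZN_MolairesMutant3 and ABH_14A that of *Pax3* was -0.69 and was not called.

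The members differed in how they followed muscle transcripts from pool to pool. A slope on the mean of 25 sarcomere genes, a list without any member, was fitted with genotype and series as terms, and it gives the log2 change of a gene for a rise of 1 log2 unit in that mean. It was called positive for 5 of 9 members beside 1.99% of all probe sets, and negative for 0 members beside 1.84%.

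**Figure D3:**
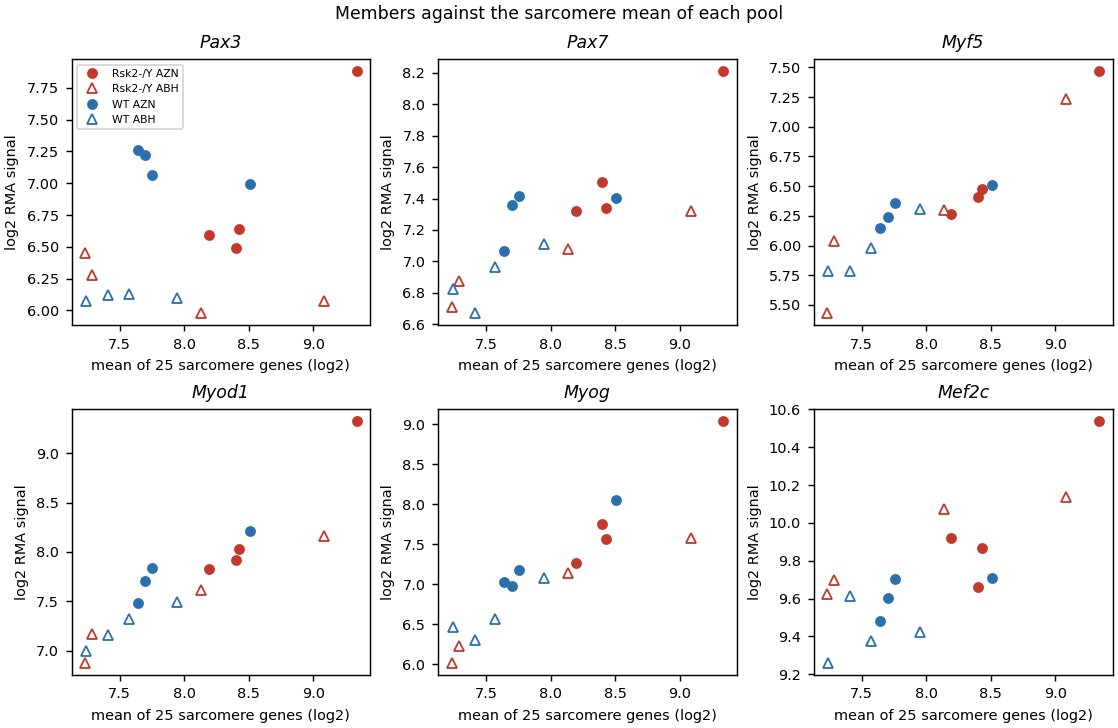
Log2 signal of 6 of the genes (y axis) against the mean log2 signal of 25 sarcomere genes in the same pool (x axis), with 16 pools per panel. Circles are AZN pools, triangles are ABH pools, red is *Rsk2-/Y* and blue is WT. *Myog* and *Myod1* run along the sarcomere mean, and *Pax3* separates by series instead.

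*Myog* had the steepest slope of the members, 1.05 (standard error 0.09, adjusted p = 1.82e-06, limma). *Myod1* was at 0.80 and *Myf5* at 0.79, with adjusted p of 2.10e-05 and 1.51e-05. *Pax7* was at 0.40 (adjusted p = 0.00703) and *Mef2c* at 0.31 (adjusted p = 0.0589). The median slope over the 25 sarcomere genes was 0.92, beside which *Pax7* and *Mef2c* had shallower slopes. *Pax3* (0.09), *Myf6* (0.16), *Eya1* (-0.15) and *Tbx1* (-0.21) were not called. In AZN pools alone *Tbx1* was called, at -0.78 (adjusted p = 0.0495, limma).

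The slopes of *Myog* and *Myod1* passed in every alternative fit that was run. Without AZN_MolairesMutant3 and ABH_14A, the slope was 1.13 for *Myog*, 0.65 for *Myod1* and 0.54 for *Myf5*, all called. Without those pools *Pax7* was at 0.31 (adjusted p = 0.697, limma) and *Mef2c* at 0.17 (adjusted p = 0.929), so that their calls rest on them. That of *Mef2c* was also lost without either of them alone and without ABH_16A alone (adjusted p = 0.206 without AZN_MolairesMutant3, 0.173 without ABH_14A and 0.115 without ABH_16A). *Myf6* was called, at 0.20, without AZN_MolairesMutant3 alone (adjusted p = 0.0855). *Pax3* was at -0.41 without both AZN_MolairesMutant3 and ABH_14A, and was not called.

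Targets of the regulators followed the sarcomere mean for 15 of 18 genes, led by *Klhl41* at 1.38, *Chrna1* at 1.297 and *Myl4* at 1.29. *Smyd1* (1.07) and *Vgll2* (0.83) were the called genes among 7 partners, and no E protein passed. *Mstn* (1.15) was the one called among 10 inhibitors and *Lhx2* (0.21) among 13 upstream regulators. *Mstn* is itself known as a gene of muscle fibres.

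*Tbx1* was the only member called for a slope on the mean of 16 dental epithelium genes, at 1.34 (standard error 0.34, adjusted p = 0.0968, limma), beside 1% of probe sets called positive and 0.101% called negative. That call lies close to the threshold and was lost in 21 of 29 alternative fits, 11 of which left out 1 pool, while its slope stayed between 0.54 and 2.00. It was kept on leaving out ABH_13A, ABH_14A, ABH_15A, AZN_MolairesWT1 or AZN_MolairesWT3, and the slope ran between 0.95 without AZN_MolairesWT2 and 1.82 without AZN_MolairesWT1. For the mean of 12 endothelium genes, *Eya1* was the only member called, at 0.81 (standard error 0.24, adjusted p = 0.0747, limma), beside 5.88% of probe sets called positive and 1.74% called negative, and the call was lost in 14 of 29 fits. Among these were the fits without AZN_MolairesMutant, AZN_MolairesMutant3, ABH_14A, ABH_16A, AZN_MolairesWT or AZN_MolairesWT1 alone, with slopes of 0.70 to 0.88. Dental mesenchyme genes also rose with the endothelium mean, with 12 of 12 slopes above 0 (median 0.97) and 5 called. The slope of *Eya1* is thus not particular to endothelium. *Mef2c*, which is known from endothelium, was not called. The sarcomere and epithelium means were themselves related, with a correlation of -0.68 over 16 pools.

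The early genes and the late genes did not each form a group of their own. *Pax7* and *Myf5*, early members, and *Myog*, a late one, varied together, *Myf6* less closely, and *Pax3* stood aside. With values centred within series, the 6 correlations among *Pax7*, *Myf5*, *Myod1* and *Myog* were 0.90 to 0.95 over 16 pools, and 0.74 to 0.90 without AZN_MolairesMutant3 and ABH_14A. For *Myf6* the correlations over 16 pools were 0.38 with *Pax7*, 0.59 with *Myf5*, 0.54 with *Myod1* and 0.60 with *Myog*. Without those pools they were 0.15, 0.23, 0.47 and 0.57 in the same order. *Myf6* read near the lower end of the scale, at 5.56 to 5.99, which limits the late side of this comparison. The 8 correlations of *Pax3* with the other members were -0.48 to 0.36 over 16 pools and -0.58 to 0.12 without those pools. Several of them turned sign, that with *Pax7* being 0.36 with all pools and -0.50 without them, that with *Myod1* 0.35 and -0.53, and that with *Myog* 0.21 and -0.58. All genes of a pool were read from the same dissection and RNA, and the correlations are a description. The genotype differences of the early members were -0.07 for *Pax3*, 0.19 for *Pax7* and 0.31 for *Myf5*, beside 0.37 for *Myog* and 0.13 for *Myf6*. Their series differences were 0.87, 0.51 and 0.38 in the same order, beside 0.94 and 0.14.

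**Figure D4:**
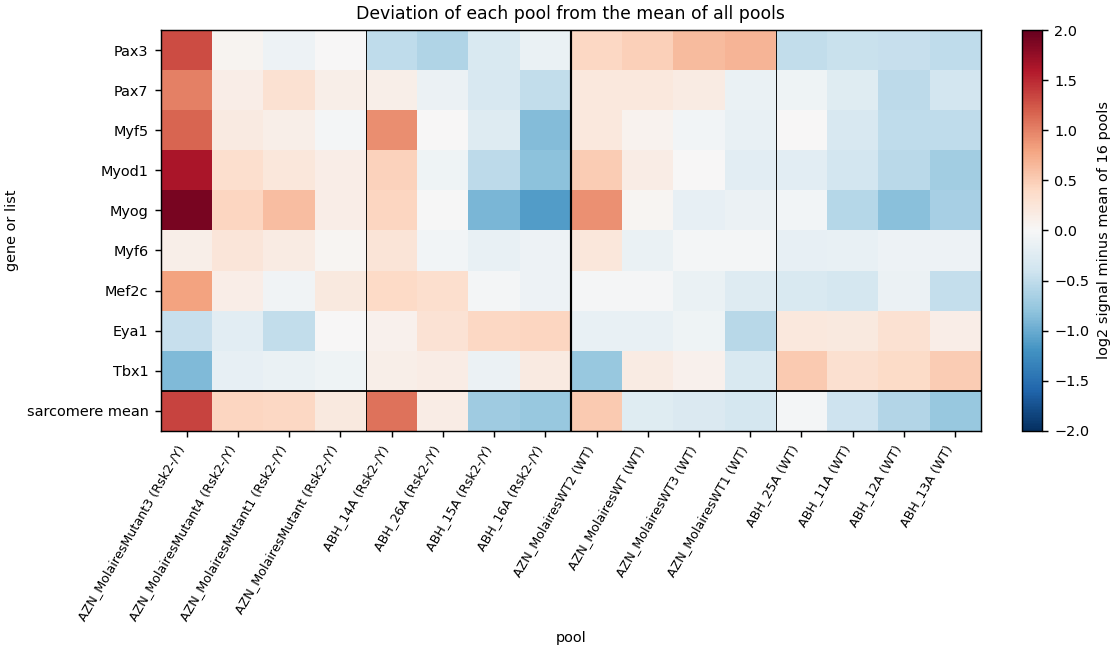
Deviation of each pool (columns) from the mean of 16 pools, in log2 units, for the 9 genes and for the mean of the sarcomere list (rows), in red above the mean and in blue below it. Pools are ordered by genotype, series and sarcomere mean, and the left column, AZN_MolairesMutant3, is the highest for 6 genes.

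Spread over the 16 pools was wide for the lineage factors. The SD over 16 pools, which includes the series difference, was 0.77 for *Myog*, above 99.7% of all probe sets tested. It was 0.60 for *Myod1*, above 99.2%, and 0.55 for *Pax3*, above 99.0%. That of *Myf6* was 0.15, above 57.5%. Within AZN and within ABH pools the SD was 0.69 and 0.54 for *Myog*, 0.56 and 0.41 for *Myod1*, and 0.46 and 0.15 for *Pax3*. The pool ABH_14A had *Myf5* at 7.23 and *Myod1* at 8.16, the highest ABH values of both, with *Pax3* at 6.07, among the low values. ABH_16A, an *Rsk2-/Y* pool as well, had the lowest *Myf5*, *Myod1* and *Myog* of all 16 pools and the highest *Eya1*.

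The genes most alike to each member were read from the correlation over 16 pools, centred within series. They are the highest of the correlations with all other genes tested, so their values are high in part through the picking. No chance level was computed, and the lower of these values may be no more than that. For *Myog* they were *Hjv*, *Vgll2* and *Klhl41*, each at 0.97, and for *Myod1* they were *Arpp21* (0.98), *Rbm24* and *Musk* (0.97 each). *Myf5* was most like *Chrna1* (0.96), *Trim55* and *Musk* (0.95 each), and *Pax7* most like *Sync* (0.96), *Vgll2* and *Trim72* (0.94 each). Without AZN_MolairesMutant3 and ABH_14A these values were 0.92 to 0.95 for *Myog* and 0.88 to 0.95 for *Myod1*. They were 0.80 to 0.83 for *Myf5* and 0.83 to 0.88 for *Pax7*. *Musk* encodes the receptor kinase of the neuromuscular junction, *Sync* an intermediate filament protein of muscle and *Rbm24* a splicing regulator of muscle.

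The other members had different neighbours. *Tbx1* was most like *Has3* (0.95), *Sostdc1* and *Foxi3* (0.94 each), the last being known from ectodermal organs and *Sostdc1* encoding an inhibitor of BMP and WNT signalling in tooth germs. *Eya1* was most like *Nfatc4* (0.91), *Hecw2* and *P4ha3* (0.89 each), and *Mef2c* most like *Ssc5d* (0.93), *Pknox2* (0.91) and *Myom1* (0.88), the last a sarcomere gene. *Pax3* was most like *Pak7*, *Ube2ql1* (0.85 each) and *Ust* (0.84), and these were 0.60 to 0.72 without AZN_MolairesMutant3 and ABH_14A. *Myf6* was most like *Lrrfip1* (0.88), *Nup210l* (0.87) and *Fbxl17* (0.86). Without the same pools the values were 0.72 to 0.85 for *Mef2c* and 0.74 to 0.81 for *Myf6*. They were 0.91 to 0.93 for *Tbx1* and 0.87 to 0.88 for *Eya1*.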

How the data were processed

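The deposited values are log2 signals per probe set, for which the submitters' notes name RMA in Affymetrix Expression Console, version 1.3.1.187. RMA corrects the background, equalises arrays and summarises probes, and nothing was normalized further. Arrays give no counts, so the number of arrays limits the precision. Groups came from the labels. Nothing says which pools share a litter, so p-values measure the spread between pools. Of 35556 probe sets, 21789 pair with 1 symbol in the platform annotation, and the 18834 of these above a signal of 5 in at least 1 pool were tested. Tests used limma 3.58.1 in R 4.3.3 (lmFit, eBayes, two-sided, Benjamini-Hochberg over all 18834), with the false discovery rate of 0.1, the fold change of 1.2 and the signal minimum of the study's methods, and no fold for interaction and slopes. Exact permutation tests were run for single genes. The fits were tested on simulated data. Named genes are the 9 members, the 3 most alike genes of each, and from each list up to 3 genes called or the 2 of largest change. The members and lists were chosen with earlier results of these data known. Alternatives were signal minima, array weights, mean over probe sets, single series or genotypes, covariates, a replicate block, the methods' t-test and leaving out pools. Some genes of the lists were not analysed here. Figures used Python 3.11.15 with matplotlib 3.10.9.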

Additional observations from a re-analysis of the deposited data

Results flagged for a closer look

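In 3 of 18 groups of 8 pools, 1 pool lay far from the others of its genotype. About 1 group in 20 would do so by chance if its pools came from a single normal distribution. These groups mix the series and the genes share their pools, so the count cannot be set against that rate. *Pax3* in the *Rsk2-/Y* pool AZN_MolairesMutant3 was at 7.88, with the other *Rsk2-/Y* pools at 5.98 to 6.64. *Tbx1* in the same pool was at 8.71, with the others at 9.44 to 9.78. *Myf6* in the WT pool AZN_MolairesWT2 was at 5.95, with the other WT pools at 5.56 to 5.69.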

How the results depend on the processing

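Counts of members called for genotype and for the interaction stayed at 0 in every alternative, the methods' t-test after adjustment included. For series the 6 calls became 4 to 7 in the alternatives and 6 to 7 with any 1 pool left out. The fit with series and a replicate block for numbers 1 and 3 of AZN, which only share a number, kept 0 calls for genotype, with *Mef2c* at 0.42. For the sarcomere slope, 5 members were called, 4 to 5 with 1 pool left out, 7 with no other term, 6 with array weights, 2 in WT pools alone and 3 without the 2 pools farthest from the median of the list, AZN_MolairesMutant3 and ABH_14A. Leaving out these pools in all fits was chosen after seeing the data. The single call for dental epithelium was 5 calls with no other term, and 0 with no signal minimum, with array weights, in either series or genotype alone, with the list's median, with the sarcomere mean in the fit, without the farthest pools and without AZN_MolairesMutant3 and ABH_14A, and 0 to 1 with 1 pool left out. That for endothelium was 2 calls with array weights and with the list's median, and 0 with no other term, in AZN, *Rsk2-/Y* or WT pools alone, with the sarcomere mean, without the farthest pools and without AZN_MolairesMutant3 and ABH_14A, and 0 to 2 with 1 pool left out. The share of all probe sets called was taken for the main fits only. Whether a change in these counts is particular to the members therefore cannot be told. The causes were not tested.

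Several differences and slopes changed sign without passing in the fits with the opposite signs. For genotype, *Pax3* was at 0.014 with array weights, 0.089 in ABH pools and -0.26 to 0.019 with 1 pool left out, and *Eya1* was at -0.056 in AZN pools and -0.059 to 0.090 with 1 pool left out. With the sarcomere mean *Pax7* was at -0.025, *Myf5* at -0.11, *Myod1* at -0.090 and *Myog* at -0.20, and with the dental epithelium mean *Pax7* was at -0.017, *Myod1* at -0.12, *Myog* at -0.21 and *Tbx1* at 0.11. The series difference of *Myf5* was -0.022 with the sarcomere mean, and the interaction of *Mef2c* was -0.27 to 0.022 with 1 pool left out. The sarcomere slope of *Pax3* was -0.062 with array weights, -0.16 in ABH pools, -0.16 in WT pools, -0.0079 with the dental epithelium mean, -0.41 without AZN_MolairesMutant3 and ABH_14A, the pools farthest from the median, and -0.19 to 0.21 with 1 pool left out. That of *Tbx1* was 0.050 in ABH pools, while it was called at -0.38 with no other term and at -0.78 in AZN pools, and that of *Eya1* 0.13 in WT pools. Signals near 5 lie close to the background of these arrays, which limits *Myf6*.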
